A study of Mus musculus with 28 samples.

Results

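The ribosome biogenesis factors described here are 36 genes, looked up by symbol in the annotation of an Affymetrix Mouse 430A2 array that was used to study mouse CD8 and CD4 T cells. Of the 36 genes, 34 had at least 1 probe set and 2 (Nob1 and Mrto4) had none. The 34 measured genes had 60 probe sets (1 in 14 genes, more in 20), and where a gene had several, the brightest by its mean over the 28 arrays stood for it. In all, 12393 genes had a probe set with a single symbol.

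Ribosomes are built mainly in the nucleolus, where RNA polymerase I copies the ribosomal DNA into a long precursor RNA. Small nucleolar ribonucleoproteins (snoRNPs) modify that precursor, the small-subunit processome cuts and folds it, and separate sets of factors mature the small and the large subunit before both leave the nucleus. A resting T cell holds few ribosomes, antigen receptor and co-receptor signals raise their production before the cell divides, and many of these factors are known targets of the transcription factor Myc.

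The study followed CD8 T cells that carried the OT1 T cell receptor transgene and CD4 T cells that carried the AND T cell receptor transgene, both from C57BL/6N mice, over 28 arrays in 10 groups. All cells spent 2 days in culture with IL7 (5 ng/ml), either on a coat of anti-CD3 and anti-CD28 antibody (10 µg/ml; stimulated) or in uncoated plates (unstimulated), and the day 2 groups were CD8 stimulated, CD8 unstimulated, CD4 stimulated and CD4 unstimulated cells (3 arrays each). For day 5 the cells were then carried for 3 more days by host mice. Cells stimulated in culture went into hosts that express the antigen (continuous; dtg-O or -M) or into hosts free of it (transient), and unstimulated cells went into antigen-free hosts. The day 5 groups were CD8 continuous, CD8 transient and CD8 unstimulated cells (3 arrays each), CD4 continuous cells (3 arrays), CD4 transient cells (2 arrays) and CD4 unstimulated cells (2 arrays). All cells therefore had IL7, each cell type rests on 1 receptor transgene, and no group had T cells that were never cultured. The replicates are described as independent biological samples, and the submitters put the purity of the sorted cells at over 99%. Markers of other cells were nevertheless bright on several day 5 arrays of different groups. The mean over the 8 measured myeloid markers was 5.38 to 6.92 in CD8 continuous, 5.02 to 7.44 in CD8 transient, 4.92 to 9.80 in CD8 unstimulated, 5.17 to 7.99 in CD4 continuous, 6.78 to 9.61 in CD4 transient and 5.71 to 8.03 in CD4 unstimulated arrays. CD8 unstimulated replicate 1 had 13.03 for Csf1r, a macrophage growth factor receptor, and CD4 transient replicate 2 had 12.86 for S100a8, a protein of neutrophils.

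Values are log2 signals, so that a difference of 1 is a 2-fold difference, and they can be set side by side only within a gene. The array medians lay between 6.29 and 6.53 on 26 arrays, but the third unstimulated day 2 arrays of both cell types stood apart at 4.97 (labelled CD8) and 4.83 (labelled CD4). Cd8a and Cd4 also went against the labels of these 2 arrays, and on the other 26 arrays these genes followed the labels. The array labelled CD8 had 5.78 for Cd8a and 7.02 for Cd4. The array labelled CD4 had 9.88 for Cd8a and 5.40 for Cd4. Of the other lineage markers, Cd8b1 (4.79 labelled CD8, 10.50 labelled CD4) and Zbtb7b (6.88 and 5.23) also went against the labels. Runx3 (6.06 and 5.26) did not. On the other arrays Runx3 and Zbtb7b did not follow the cell type throughout. For example, Zbtb7b was 8.02 in CD8 and 7.84 in CD4 transient replicate 1. The day 2 counts of factors and of gene lists are therefore given with and without the third unstimulated arrays. The 3′ minus 5′ signal of beta-actin, a control that is larger where RNA is degraded or amplified from the 3′ end, was 1.11 to 1.69 in stimulated and 2.28 to 4.30 in unstimulated day 2 arrays, without overlap. On day 5 it was 1.92 to 2.73 in CD8 unstimulated and CD4 transient arrays and 0.31 to 1.02 in the other 4 groups. In bulk RNA, fewer cells of a type and less RNA per cell cannot be told apart.

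**Figure D1:**
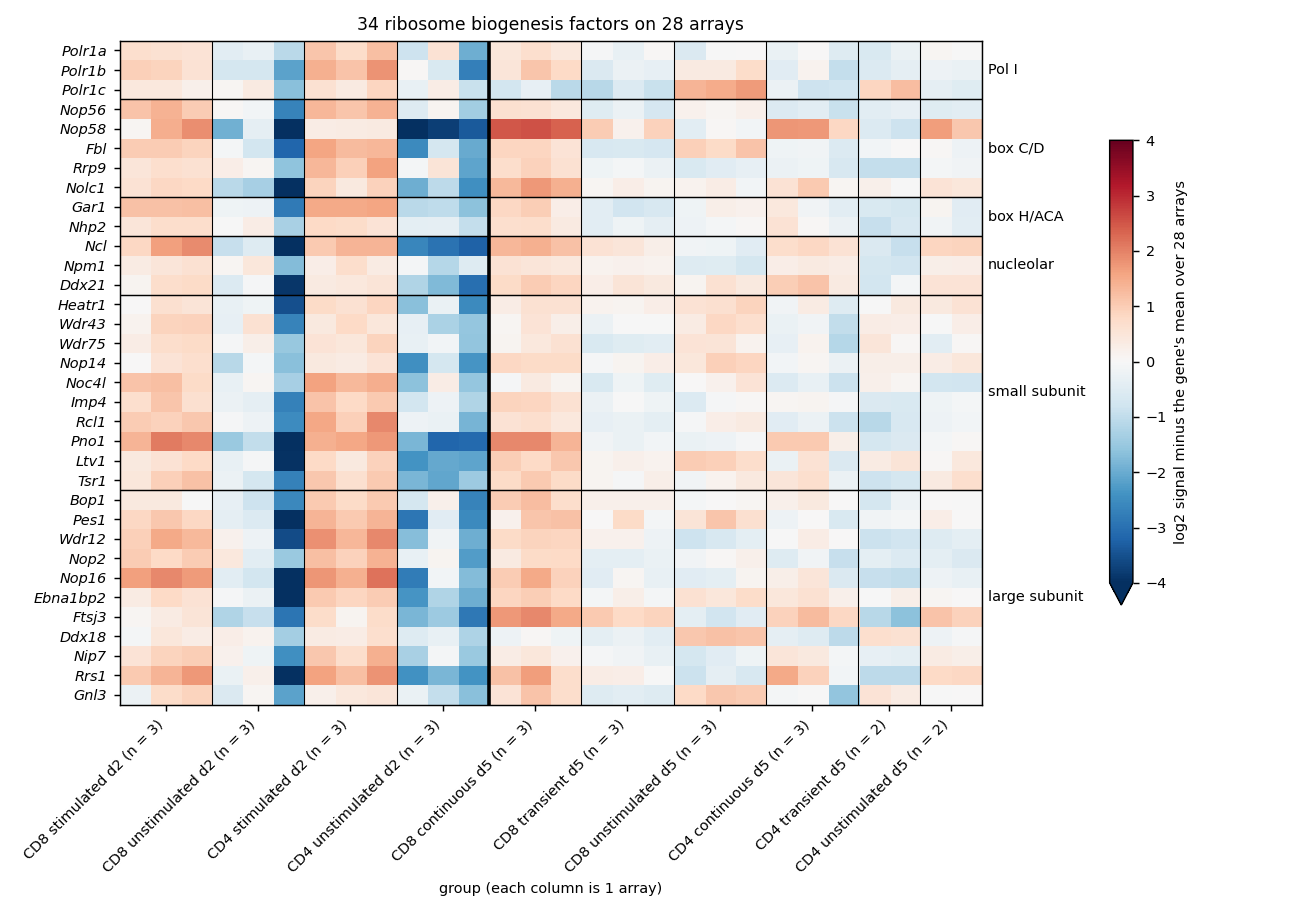
Each row is 1 of the 34 ribosome biogenesis factors, grouped by role, each column is 1 array, and the colour is the log2 signal minus the mean of that gene over the 28 arrays. The colour scale ends at 4 below and 4 above the mean, and 9 values lie below its lower end. Stimulated day 2 and CD8 continuous day 5 columns are mostly above the mean, and the unstimulated day 2 columns are mostly below it.

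The rank of the factors among all genes on an array does not depend on the overall brightness of that array. Their median percentile among the 12393 genes was 83.2 to 88.4 on the stimulated day 2 arrays and 73.4 to 79.7 on the unstimulated day 2 arrays, which did not overlap; the range on unstimulated arrays was the same without the third arrays. Gene by gene, the percentile was higher on all 3 stimulated than on all 3 unstimulated arrays for 20 factors in CD8 and 26 in CD4 cells. Without the third unstimulated arrays these counts were 23 and 27. The share of all genes separated in this way was not counted. On day 5 the median was 83.4 to 86.0 in CD8 continuous, 77.9 to 80.1 in CD8 transient, 77.6 to 82.4 in CD8 unstimulated, 74.5 to 81.2 in CD4 continuous, 72.7 to 74.4 in CD4 transient and 78.8 to 79.9 in CD4 unstimulated cells. The CD8 continuous arrays were thus above all other day 5 arrays, and the CD4 transient arrays were below all others. By group mean, 20 of the 34 factors had their highest level of all 10 groups in CD4 stimulated day 2 cells, 8 in CD8 continuous day 5 cells, 3 in CD8 stimulated day 2 cells and 3 in CD8 unstimulated day 5 cells. The lowest level was in CD4 unstimulated day 2 cells for 23 factors, in CD8 unstimulated day 2 cells for 7, in CD4 transient cells for 3 and in CD8 transient cells for 1. Without the third unstimulated arrays the tally of highest levels was the same. The lowest level was then in CD4 unstimulated day 2 cells for 20 factors and in CD4 transient cells for 6. It was in CD4 continuous cells for 3, in CD8 unstimulated day 2 cells for 2 and in CD8 transient cells for 2. For 1 factor it was in CD4 unstimulated day 5 cells. These tallies were not made over all genes.

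**Figure D2:**
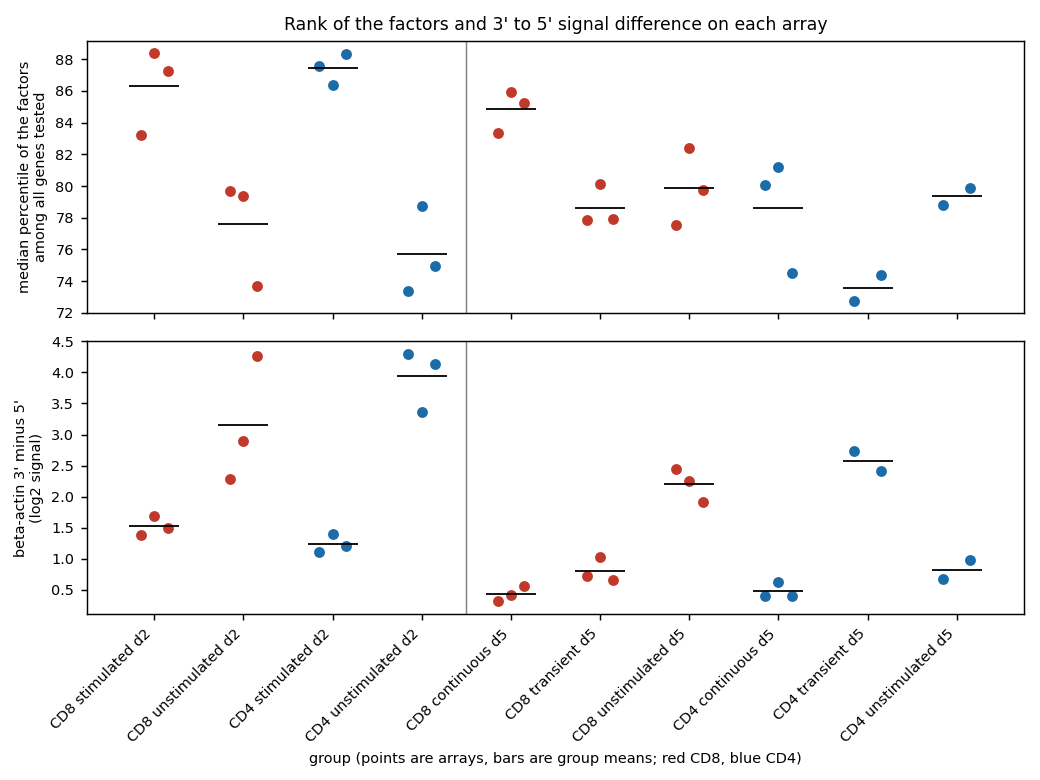
The upper panel shows, for each array, the median percentile of the 34 factors among 12393 genes, and the lower panel the beta-actin 3′ minus 5′ difference (log2 signal) of the same array. Points are arrays, bars are group means, red is CD8 and blue is CD4. Stimulated day 2 arrays have the higher rank and the smaller actin difference, and on day 5 the CD8 continuous arrays have the highest rank.

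The promoters of the factors were read to show which sequence elements they share. Windows from 250 bases before to 50 after the annotated start (RefSeq, GRCm38.p6) were at hand for 30 of the 34 measured factors, in 32 windows; Bop1, Fbl, Npm1 and Rrs1 were not matched. The canonical E-box CACGTG, the element that Myc and Max bind, was in 7 of the 32 windows (21.9%), against 9.11% of the 12566 windows of genes on the array and 7.15% of all 32851 windows. The factors with this E-box were Imp4, Ltv1, Nop2, Pes1, Pno1, Tsr1 and Wdr43. The stretches of 30 bases around it are printed 5′ to 3′ on the strand of the gene for the 6 of them that were chosen by their day 2 differences, with the E-box in capitals, because they show that its place and flanks differ from gene to gene.
Pno1: tgcgctgtacaaccacgCACGTGttcctct
Pes1: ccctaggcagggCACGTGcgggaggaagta
Ltv1: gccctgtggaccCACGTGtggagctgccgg
Tsr1: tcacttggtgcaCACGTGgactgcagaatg
Imp4: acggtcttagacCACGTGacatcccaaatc
Nop2: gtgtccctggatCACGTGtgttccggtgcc
They lie at chr11:17211540-17211569 (minus strand), chr11:3963965-3963994 (plus strand), chr10:13193092-13193121 (minus strand), chr11:74898092-74898121 (plus strand), chr1:34439696-34439725 (plus strand) and chr6:125131811-125131840 (plus strand). With the start counted as position 1, the E-box began at position 3 in Pes1, 25 in Tsr1, 29 in Ltv1 and 38 in Pno1. It was thus inside the transcribed part in these 4 genes, as in Wdr43 (position 18). In Imp4 and Nop2 it was upstream, at positions -121 and -60.

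Other elements were searched on both strands in the same windows. The E-box variant CACGCG was in 7 windows (21.9%, against 14.7% of the windows of array genes), the ETS-type element CCGGAAG in 10 (31.2%, against 14%), the GC box GGGCGG in 24 (75%, against 55.4%) and the element TCTCGCG in 5 (15.6%, against 4.32%). The YY1-type element AAGATGG was in 3 windows (9.38%, against 6.56%) and the TATA box TATAAA in 1 (3.12%, against 9.81%). Elements were counted separately, so their matches may overlap, and a match describes letters only. Nop58 and Ncl, which had some of the largest day 2 differences, had no CACGTG in this window. Their promoter stretches before the start are shown with GGGCGG and TCTCGCG of either strand in capitals.
Nop58: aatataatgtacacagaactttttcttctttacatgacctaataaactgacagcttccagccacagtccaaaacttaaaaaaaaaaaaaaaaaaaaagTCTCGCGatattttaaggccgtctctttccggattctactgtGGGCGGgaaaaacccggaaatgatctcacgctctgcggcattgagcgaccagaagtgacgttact
Ncl: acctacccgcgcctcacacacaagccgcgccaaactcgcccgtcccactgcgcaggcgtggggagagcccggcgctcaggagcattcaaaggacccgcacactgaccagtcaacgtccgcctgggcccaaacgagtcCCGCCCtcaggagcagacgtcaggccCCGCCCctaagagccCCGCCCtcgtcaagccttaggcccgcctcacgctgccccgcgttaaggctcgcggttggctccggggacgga
The Nop58 stretch covers chr1:59684756-59684960 (plus strand, 205 bases, 40.0% G or C) and holds 1 GGGCGG and 1 TCTCGCG, and the Ncl stretch covers chr1:86359456-86359705 (minus strand, 250 bases, 69.6% G or C) and holds 3 GGGCGG and 0 TCTCGCG.

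In CD8 cells on day 2, stimulation went with higher signals of the factors: 8 of the 34 rose and 0 fell. All 34 differences were positive, with a median of 1.95 (0.54 to 4.18), against a median of 0.14 over all genes. Among all genes, 7.49% were called higher and 0.863% lower (limma, adjusted p below 0.05). The 8 were Nop58, Nolc1, Gar1, Ncl, Pno1, Tsr1, Nop16 and Ftsj3. The 3 rRNA synthesis factors were not among them. Of these, Polr1b differed by 1.98. It was the only 1 of the 3 called without the third unstimulated arrays (1.49, limma, adjusted p = 0.00259). In 29 of the 34 the stimulated arrays all lay above the unstimulated ones, as in 26.8% of all genes (29 and 27% without the third unstimulated arrays).

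Pno1 had 10.88, 11.61 and 11.44 in stimulated cells and 8.02, 8.54 and 4.82 in unstimulated cells, a difference of 4.18 (SE 0.77, adjusted p = 0.00488). Pno1 is the partner of the endonuclease Nob1 in the last cut of the small subunit RNA, and its stimulated arrays lay above all unstimulated ones. Nop58 had 9.19, 10.56 and 10.97 in stimulated cells and 7.18, 8.76 and 3.78 in unstimulated cells, a difference of 3.67 (SE 0.93, adjusted p = 0.0287). Nop56 and Nop58 form the core of the box C/D snoRNPs, which guide 2′-O-methylation, and the third unstimulated array was far below the other 2. Ncl, nucleolin, a major nucleolar RNA-binding protein, had 12.53, 13.35 and 13.60 in stimulated and 10.77, 11.19 and 7.01 in unstimulated cells, a difference of 3.50 (SE 0.83, adjusted p = 0.0202). Nop16, a large-subunit factor, had 10.45, 10.75 and 10.51 in stimulated and 8.41, 8.10 and 4.21 in unstimulated cells, a difference of 3.67 (SE 0.92, adjusted p = 0.0279). The groups did not overlap for either gene. Nolc1, a chaperone of snoRNP assembly, had 10.30, 10.55 and 10.53 in stimulated and 8.67, 8.40 and 5.14 in unstimulated cells, a difference of 3.06 (SE 0.75, adjusted p = 0.0238). Gar1, a core protein of the box H/ACA snoRNPs that guide pseudouridylation, had 12.37, 12.36 and 12.38 in stimulated and 11.02, 10.98 and 8.35 in unstimulated cells, a difference of 2.25 (SE 0.60, adjusted p = 0.0365). The 3 stimulated Gar1 values lay within a narrow range above all unstimulated values. At the other end were Ddx18, an RNA helicase of the large subunit, with 10.21, 10.76 and 10.58 in stimulated and 10.56, 10.43 and 8.93 in unstimulated cells, and Polr1c, a subunit shared by RNA polymerases I and III, with 11.94, 11.94 and 11.71 in stimulated and 11.58, 11.87 and 9.84 in unstimulated cells. Both overlapped between the groups. Their differences of 0.54 (adjusted p = 0.605) and 0.76 (adjusted p = 0.456) were not called.

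Without the third unstimulated arrays, 20 factors were higher and 0 lower in CD8 stimulated cells, with the earlier 8 among them; 16.5% of all genes were then called higher and 21.4% lower. The differences were smaller, with a median of 1.06 against -0.22 over all genes; that of Pno1 was 3.03, that of Nop58 2.27 and that of Ncl 2.18. Leaving out other single arrays moved the count of 8 to 15 and 18 (without unstimulated replicate 1 or 2) and to 3, 1 and 1 (without stimulated replicate 1, 2 or 3), and it was 18 with median centring, 28 with array weights and 29 in a fit of all 28 arrays. The shares of all genes called under these last settings are not given here, so these counts cannot be set against them.

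Myc and the other lists are given next for CD8 cells, first with all arrays. Myc had 10.48, 10.50 and 10.46 in stimulated and 8.72, 8.65 and 5.19 in unstimulated cells, a difference of 2.96 (SE 0.74, adjusted p = 0.0265), and 1.79 (SE 0.25, adjusted p = 0.000888) without the third unstimulated arrays. Of 85 measured other ribosome biogenesis factors, 14 rose and 0 fell, with a median of 1.45, among them Utp6 3.75, Rrp8 3.21 and Rsl24d1 2.99; without the third arrays 40 were higher and 4 lower, with a median of 0.72. The RNA exosome, which trims ribosomal precursor RNA, had 2 of 12 higher and 0 lower (Dis3 2.86 and Exosc2 1.83), and without the third arrays 3 were higher and 1 lower, with a median of 0.27. Of 8 other polymerase I genes 1 rose and 0 fell (Rrn3, the initiation factor that binds polymerase I, 1.92), and without the third arrays 3 were higher and 2 lower, with a median of 0.26. Of 44 cytosolic ribosomal protein genes, a list added after the data were seen, 0 rose and 3 fell, with a median of -0.21, and without the third arrays 1 were higher and 13 lower, with a median of -0.24. Markers of other cells moved as follows in CD8 cells. The mean over 8 myeloid markers was 4.75 to 4.84 in stimulated and 4.84 to 5.13 in unstimulated arrays, and that over 7 B cell markers 6.28 to 6.39 in stimulated and 5.80 to 6.74 in unstimulated arrays. With all arrays 0 of these markers were called; without the third ones 1 myeloid and both red cell markers were lower, and of the B cell markers 1 was higher and 1 lower.

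In CD4 cells on day 2 the factors were also higher with stimulation: 16 of 34 rose and 0 fell, while 10.7% of all genes were called higher and 0.718% lower. The median difference was 2.34 (0.90 to 4.28), against 0.14 over all genes. In all 34 the stimulated arrays lay above the unstimulated ones, as in 29% of all genes (34 and 29.1% without the third unstimulated arrays). Beside the 8 factors that rose in CD8 cells, the 16 held Polr1b, the subunit of polymerase I that forms part of its active centre; Fbl, fibrillarin, the methyltransferase of the box C/D snoRNPs; Nop14, Noc4l and Rcl1 of the small-subunit processome; Ltv1, a late small-subunit factor; and Pes1 and Wdr12, which form the PeBoW complex with Bop1.

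Pno1 had 10.95, 11.05 and 11.26 in stimulated cells and 7.69, 6.33 and 6.40 in unstimulated cells, a difference of 4.28 (SE 0.77, adjusted p = 0.00365). Ncl had 12.73, 13.05 and 13.06 in stimulated cells and 9.10, 8.75 and 8.48 in unstimulated cells, a difference of 4.17 (SE 0.83, adjusted p = 0.00625). Nop58 had 9.40, 9.43 and 9.47 in stimulated cells and 4.76, 5.36 and 5.74 in unstimulated cells, a difference of 4.15 (SE 0.93, adjusted p = 0.0122). For these 3 genes every unstimulated array, not the third alone, lay well below the stimulated ones. Nop16 had 10.60, 10.24 and 10.98 in stimulated cells and 6.03, 8.71 and 7.07 in unstimulated cells, a difference of 3.34 (SE 0.92, adjusted p = 0.0327). Pes1 had 10.24, 9.94 and 10.25 in stimulated cells and 6.00, 8.43 and 6.34 in unstimulated cells, a difference of 3.22 (SE 0.89, adjusted p = 0.0331). Fbl had 12.59, 12.26 and 12.34 in stimulated cells and 8.45, 10.30 and 8.97 in unstimulated cells, a difference of 3.15 (SE 0.69, adjusted p = 0.0107). Within the unstimulated group, replicate 2 was the highest of the 3 arrays for Nop16, Pes1 and Fbl. Polr1c had 12.11, 11.88 and 12.36 in stimulated and 11.23, 11.82 and 10.62 in unstimulated cells, and Npm1, nucleophosmin, an abundant nucleolar chaperone, had 12.95, 13.40 and 13.02 in stimulated and 12.60, 11.54 and 12.16 in unstimulated cells. Their differences, 0.90 (adjusted p = 0.338) and 1.03 (adjusted p = 0.267), were not called although the groups did not overlap.

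Without the third unstimulated arrays, all 34 factors were called higher in CD4 stimulated cells, the 16 included; 26.2% of all genes were then called higher and 39.4% lower. The median difference was 1.84, against -0.31 over all genes. Without unstimulated replicate 1 the count of 16 fell to 7, and without stimulated replicate 1, 2 or 3 to 5, 8 and 7, and it was 28 with median centring, 27 with array weights and 33 in a fit of all 28 arrays. For these last settings, too, the shares of all genes called are not given here.

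With all arrays, Myc had 10.87, 10.84 and 11.35 in CD4 stimulated and 7.11, 7.88 and 7.21 in CD4 unstimulated cells, a difference of 3.62 (SE 0.74, adjusted p = 0.0073), and without the third ones 3.53 (SE 0.25, adjusted p = 1.74e-05). Among the 85 other ribosome biogenesis factors 26 rose and 0 fell, with a median of 1.76 (Rrp12 3.92, Utp6 3.86 and Rrp8 3.64); without the third arrays 59 were higher and 7 lower, with a median of 1.30. Of the 8 other polymerase I genes Rrn3 (3.29) and Polr1e (2.61) rose and 0 fell, and without the third arrays 4 were higher and 1 lower, with a median of 0.94. The exosome was split, with 4 of 12 higher (Dis3 2.49 and Exosc2 2.36 among them) and 1 lower, Exosc8 at -3.02, and without the third arrays 8 were higher and 1 lower, with a median of 0.96. The list of 44 ribosomal protein genes had 0 higher and 2 lower, with a median of -0.13, and without the third arrays 6 were higher and 13 lower, with a median of -0.18. The mean over 8 myeloid markers was 4.74 to 4.81 in CD4 stimulated arrays and 5.83, 6.23 and, on the third array, 4.02 in CD4 unstimulated ones. That over 7 B cell markers was 5.46 to 6.16 in stimulated arrays and 7.05, 6.69 and, on the third array, 5.36 in unstimulated ones. With all arrays 1 B cell and 0 myeloid markers were lower, and without the third ones 8 of 8 myeloid, 5 of 7 B cell and 2 of 2 red cell markers were lower with stimulation, and 0 were higher. The part of other cells in the day 2 differences was not tested. In both cell types the stimulated arrays also had the smaller beta-actin 3′ minus 5′ difference, so stimulation and RNA state cannot be told apart on day 2.

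**Figure D3:**
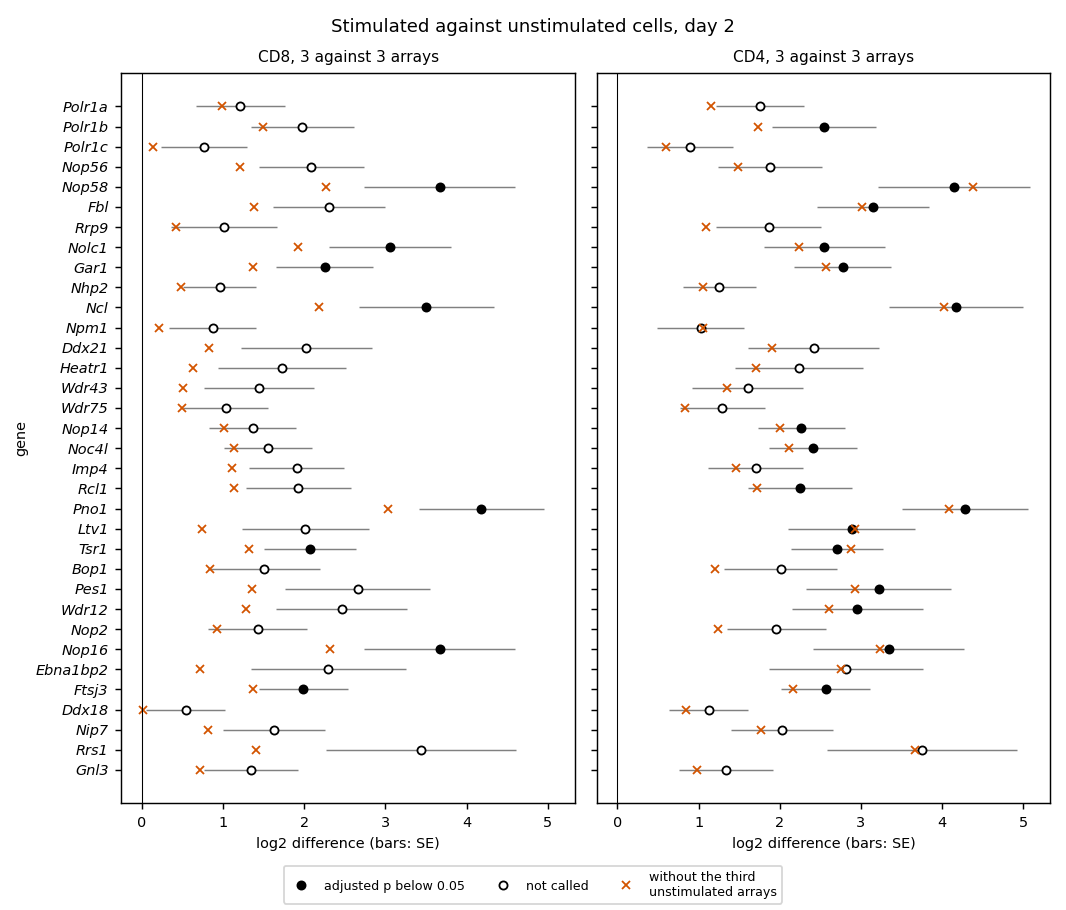
Log2 differences between stimulated and unstimulated cells on day 2 are shown for each of the 34 factors, ordered by role, with SE as bars, in CD8 cells (left) and CD4 cells (right). Filled points have an adjusted p below 0.05 and open points do not, and crosses are the differences without the third unstimulated arrays. All points lie right of 0, and most crosses lie left of their points in the CD8 panel.

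The CD8 response minus the CD4 response was called for 0 of the 34 factors and for 0% of all genes (limma), and at an unadjusted p below 0.05 for 0 factors and for 0.242% of all genes upward and 0.323% downward. The median of these differences was -0.50 (-0.90 to 0.51), and 5 of 34 were positive. The smallest were those of Gnl3, nucleostemin, at 0.0084 (SE 0.82) and of Pno1 at -0.10 (SE 1.09), and that of Myc was -0.66 (SE 1.05), or -1.74 (SE 0.35, adjusted p = 0.0427) without the third arrays. Without the third arrays the median was -0.88 (-2.25 to -0.17), against 0.071 over all genes, and 0 of 34 were positive. An unadjusted p below 0.05 (limma) was then reached by 13 of the 34 factors and by 2835 of the 12393 genes. After adjustment, 4 factors had a smaller response in CD8 than in CD4 cells and 0 a larger one. Of all genes, 0.718% were called upward and 1.77% downward. They were Gar1 (-1.21, adjusted p = 0.0247), Ltv1 (-2.18, adjusted p = 0.0175), Ebna1bp2, a large-subunit factor (-2.05, adjusted p = 0.0484), and Rrs1, which brings the 5S particle into the large subunit (-2.25, adjusted p = 0.0341). Rrs1 had 10.65, 10.95 and 11.32 in CD8 stimulated and 9.34, 9.79 and 3.48 in CD8 unstimulated cells, and 11.20, 10.79 and 11.39 in CD4 stimulated and 7.16, 7.77 and 7.20 in CD4 unstimulated cells. The first 2 CD8 unstimulated arrays were nearer to the stimulated level than any CD4 unstimulated array was.

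On day 5, CD8 cells in hosts with antigen were set against CD8 cells that had been stimulated in the same way and then rested without it. Continuous cells had higher signals for 28 of the 34 factors and lower signals for 0, while 13.6% of all genes were called higher and 13.6% lower. The median difference was 0.87 (0.13 to 1.90), against -0.052 over all genes. In 32 factors all continuous arrays lay above all transient ones, as in 18.3% of all genes. Leaving out 1 array gave 22 to 27 calls. The beta-actin 3′ minus 5′ difference was 0.31 to 0.56 in continuous and 0.66 to 1.02 in transient arrays. That of Gapdh was 1.29 to 1.57 in continuous and 1.83 to 2.00 in transient arrays. Neither overlapped, and their part was not tested. In a single fit of all 28 arrays, 0 factors were called in this comparison and in the next 2, and 1 to 5 in the other day 5 comparisons within a cell type.

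All 5 box C/D factors rose, with a median of 1.34, the highest of the 6 roles. Nop58 had 11.59, 11.67 and 11.49 in continuous and 10.12, 9.28 and 10.05 in transient cells, a difference of 1.77 (SE 0.27, adjusted p = 0.000337). Fbl had 11.85, 11.86 and 11.54 in continuous and 10.36, 10.39 and 10.34 in transient cells, a difference of 1.39 (SE 0.14, adjusted p = 2.62e-05). Nolc1 had 11.02, 11.48 and 11.15 in continuous and 9.80, 10.00 and 9.84 in transient cells, a difference of 1.34 (SE 0.20, adjusted p = 0.000345). In each of them the groups were separated by more than the spread within either group. Nop56 (1.03) and Rrp9, a protein of the U3 snoRNP that guides the early cuts (0.92), rose by less. Both box H/ACA proteins rose: Gar1 had 12.02, 12.18 and 11.46 in continuous and 10.77, 10.43 and 10.55 in transient cells, a difference of 1.30 (SE 0.23, adjusted p = 0.000912) (the third continuous array was the lowest), and Nhp2 differed by 0.89. Of the abundant nucleolar proteins, Ncl (0.87) and Npm1 (0.35) rose, while the helicase Ddx21 differed by 0.50 (adjusted p = 0.0876).

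In the small-subunit set 8 of 10 rose. Pno1 had the largest difference of all 34 factors, with 11.43, 11.44 and 10.88 in continuous and 9.39, 9.24 and 9.42 in transient cells, a difference of 1.90 (SE 0.20, adjusted p = 3.09e-05). Its 3 continuous values all exceeded the highest transient value by over 1 log2 unit. Imp4 (0.93), Rcl1 (0.89), Nop14 (0.68) and Noc4l (0.57) of the processome rose, as did the late factors Ltv1 (0.80) and Tsr1 (0.77). The UTP-A proteins, which link transcription of the precursor to its processing, were divided: Wdr75 rose (0.89), and Heatr1 (0.34, adjusted p = 0.21) and Wdr43 (0.38, adjusted p = 0.209) were not called. In the large-subunit set 9 of 11 rose. Nop16 had 9.83, 10.33 and 9.74 in continuous and 8.36, 8.90 and 8.53 in transient cells, a difference of 1.37 (SE 0.25, adjusted p = 0.00117), and its groups did not overlap. Gnl3 (1.28), Rrs1 (1.00), the 28S rRNA methyltransferase Nop2 (0.98), Ebna1bp2 (0.87), the methyltransferase Ftsj3 (0.83) and Nip7 (0.47) also rose. Of the PeBoW complex, Bop1 (0.78) and Wdr12 (0.79) rose and Pes1 did not pass (0.58, adjusted p = 0.154); 1 transient Pes1 array reached into the continuous range.

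Of the polymerase I subunits, Polr1a, the largest (0.61), and Polr1b (1.17) rose. Polr1c had 10.78, 11.17 and 10.43 in continuous and 10.41, 10.96 and 10.63 in transient cells, and Ddx18 had 10.09, 10.35 and 10.11 in continuous and 9.90, 10.07 and 9.87 in transient cells. Neither passed, with differences of 0.13 (adjusted p = 0.732) and 0.24 (adjusted p = 0.287), and the Polr1c arrays of both groups overlapped. Over all 60 probe sets 43 were higher and 0 lower. Myc had 9.11, 10.62 and 10.60 in continuous and 9.23, 9.13 and 9.17 in transient cells, and its difference of 0.93 (SE 0.50, adjusted p = 0.206) was not called. The first continuous array lay just below the transient ones and the other 2 lay above them. Of the 85 other ribosome biogenesis factors 39 rose and 4 fell, with a median of 0.45 (Lyar 1.62, Rsl1d1 1.53 and Utp6 1.47). Other polymerase I genes had 3 of 8 higher and 2 lower, among them the SL1 initiation factor subunits Taf1d (0.73), Taf1b (0.50) and Taf1c (-0.61). The exosome had 6 of 12 higher and 1 lower, led by Dis3 (1.58), Exosc8 (-1.49) and Exosc2 (0.98). Of 11 measured Myc network genes 0 rose and 1 fell, the Max partner Mxd4 (-1.99). The 44 ribosomal protein genes had 1 higher and 12 lower, with a median of -0.22.

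For CD4 cells, the continuous group was set against the unstimulated one on day 5, with 3 against 2 arrays. Of the 34 factors 2 rose and 1 fell, while 9.92% of all genes were called higher and 10.8% lower. The median difference was -0.11 (-0.59 to 0.78), and the groups did not overlap in 6 factors upward and 9 downward (23.2% and 26.2% of all genes). Pno1 had 10.55, 10.55 and 9.74 in continuous and 9.45 and 9.57 in unstimulated cells, a difference of 0.78 (SE 0.22, adjusted p = 0.0243). Wdr12 had 9.56, 9.88 and 9.61 in continuous and 9.06 and 9.19 in unstimulated cells, a difference of 0.55 (SE 0.15, adjusted p = 0.0189). Nop14 had 8.06, 8.25 and 7.94 in continuous and 8.46 and 8.60 in unstimulated cells, a difference of -0.45 (SE 0.15, adjusted p = 0.0475). Without either unstimulated array, 0 factors were called. The 3′ minus 5′ difference was 0.40 to 0.62 for beta-actin and 1.44 to 1.66 for Gapdh in continuous arrays, against 0.67 to 0.98 and 2.16 to 2.24 in unstimulated arrays. Neither overlapped, and their part was not tested. Nip7 had 11.63, 11.54 and 11.07 in continuous and 11.47 and 11.38 in unstimulated cells, and Rrs1 had 11.12, 10.53 and 9.50 in continuous and 10.38 and 10.42 in unstimulated cells. Their differences were -0.01 (SE 0.18) and -0.018 (SE 0.36), and the continuous arrays lay on both sides of the unstimulated ones for Rrs1. The third CD4 continuous array was the lowest of its group for many factors, as the heat map of all arrays shows, and it had 7.01 for Myc against 9.09 and 9.23 on the other 2. Myc was not called (-0.42, adjusted p = 0.695). Of the 85 other ribosome biogenesis factors 4 rose and 10 fell, with Mdn1, the AAA ATPase of large-subunit maturation, at -1.32 and Wdr46 at -0.99. Ribosomal protein genes had 1 of 44 higher and 14 lower, with a median of -0.26.

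The continuous groups of both cell types were compared directly, a comparison added after the data were seen, which shares the CD8 continuous arrays with the one against transient cells. CD8 continuous cells were higher than CD4 continuous cells for 25 of the 34 factors and lower for 0, while 6.58% of all genes were called higher and 4.62% lower. The median difference was 0.76 (-0.10 to 1.35), against -0.0041 over all genes. In 26 factors all CD8 arrays lay above all CD4 arrays, as in 14.8% of all genes. The count was 16 without CD4 continuous replicate 3 and 13 without CD8 continuous replicate 2. The 2 cell types also differed in receptor transgene. Their hosts were named as dtg-O or -M, so the host line and its antigen may differ as well.

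Gnl3 had 10.71, 11.30 and 10.87 in CD8 and 10.09, 10.16 and 8.60 in CD4 cells, a difference of 1.35 (SE 0.31, adjusted p = 0.0134). Its lowest CD8 value lay above its highest CD4 value, and the third CD4 array was far below the other 2. Polr1b had 8.28, 8.93 and 8.60 in CD8 and 7.36, 7.95 and 6.84 in CD4 cells, a difference of 1.22 (SE 0.23, adjusted p = 0.00495). Nop56 had 11.32, 11.28 and 11.10 in CD8 and 10.14, 10.24 and 9.78 in CD4 cells, a difference of 1.18 (SE 0.13, adjusted p = 0.000153). Nop56 was even within both groups. Nop2 had 9.30, 9.69 and 9.72 in CD8 and 8.42, 8.80 and 8.01 in CD4 cells, a difference of 1.16 (SE 0.17, adjusted p = 0.00122). Nop16 had 9.83, 10.33 and 9.74 in CD8 and 9.05, 9.30 and 8.24 in CD4 cells, a difference of 1.10 (SE 0.25, adjusted p = 0.0131). Rrp9 had 9.77, 9.98 and 9.68 in CD8 and 8.83, 8.88 and 8.43 in CD4 cells, a difference of 1.10 (SE 0.13, adjusted p = 0.000187). None of these 6 genes had overlapping groups. By role, all 5 box C/D factors rose, 8 of 10 small-subunit factors, 9 of 11 large-subunit factors, 2 of 3 polymerase I subunits, 1 of 3 abundant nucleolar proteins and 0 of 2 box H/ACA proteins. The 9 factors that did not pass were Polr1c, Gar1, Nhp2, Npm1, Ddx21, Wdr75, Tsr1, Nip7 and Rrs1. Nip7 had 11.44, 11.61 and 11.32 in CD8 and 11.63, 11.54 and 11.07 in CD4 cells, and Ddx21 had 10.00, 10.24 and 10.08 in CD8 and 10.21, 10.36 and 9.60 in CD4 cells. Both overlapped between the cell types, with differences of 0.046 (SE 0.16) and 0.052 (SE 0.20). Myc, with 9.11, 10.62 and 10.60 in CD8 and 9.09, 9.23 and 7.01 in CD4 cells, differed by 1.66 (SE 0.50, adjusted p = 0.0486). Of the 85 other ribosome biogenesis factors 36 rose and 0 fell, with a median of 0.46 (Lyar 1.50, Grwd1 1.49 and Mybbp1a 1.41), the exosome had 5 of 12 higher (Exosc1 1.03, Exosc2 0.96 and Dis3 0.88) and other polymerase I genes 2 of 8 (Taf1d 0.91 and Rrn3 0.42). Ribosomal protein genes had 3 of 44 higher and 1 lower, with a median of 0.05.

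**Figure D4:**
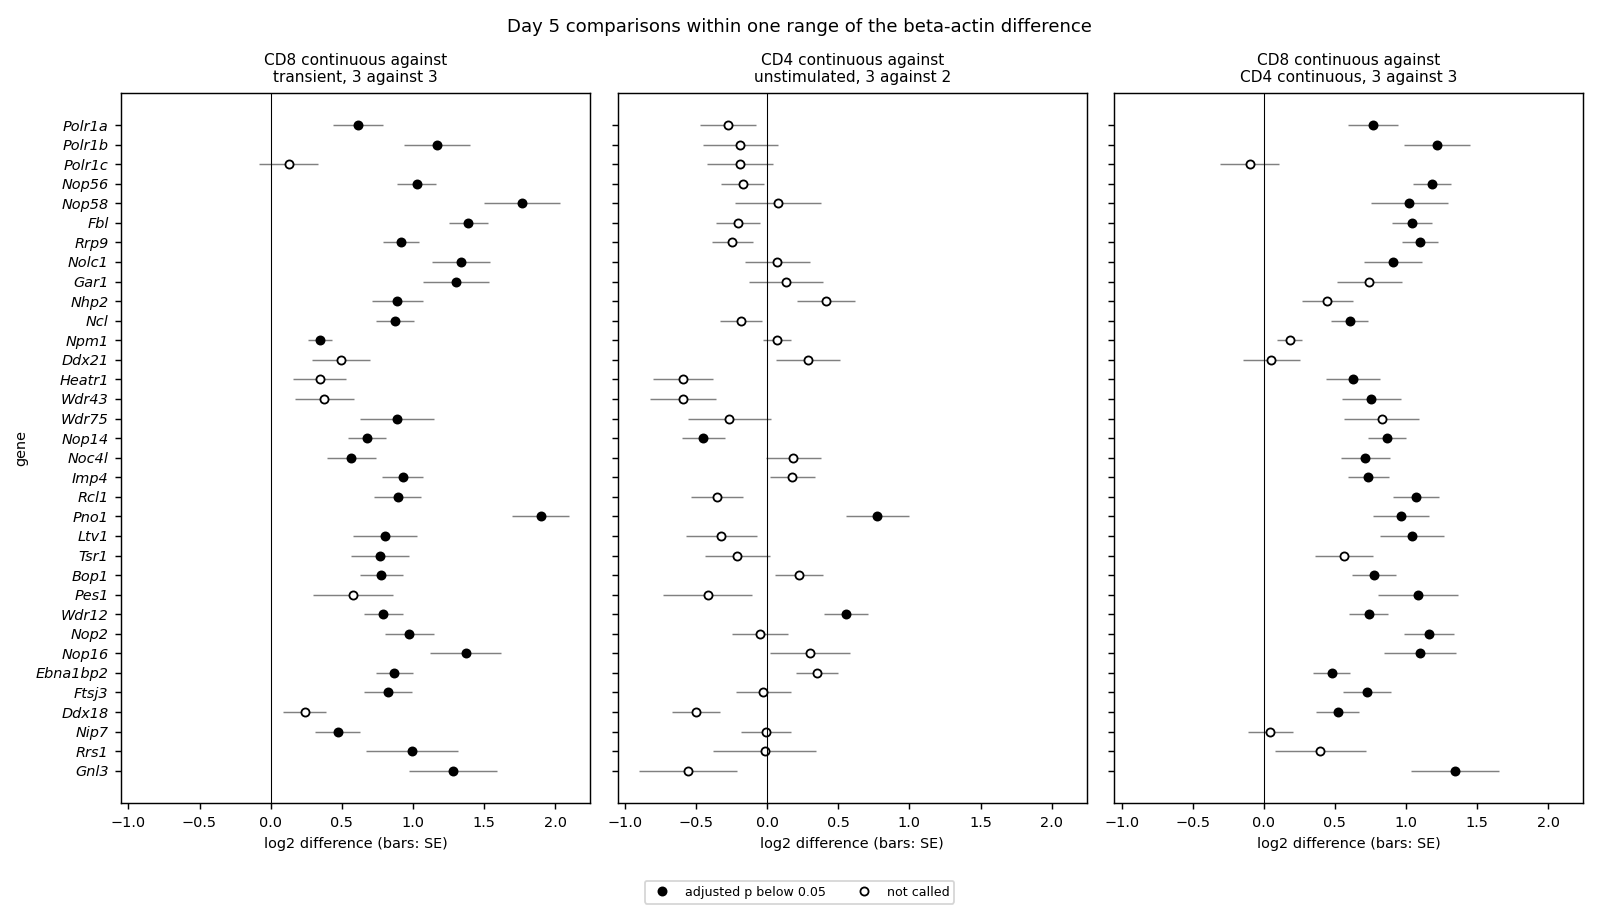
Log2 differences with SE are shown for each of the 34 factors, ordered by role, in CD8 continuous against transient cells (left), CD4 continuous against unstimulated cells (middle) and CD8 continuous against CD4 continuous cells (right), filled where the adjusted p is below 0.05. The beta-actin difference of their arrays lay between 0.31 and 1.02, without overlap between the groups of the left and of the middle panel. The left and right panels hold 28 and 25 filled points, all right of 0, and the middle panel holds 3.

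The other day 5 comparisons include CD8 unstimulated or CD4 transient arrays, which had the larger beta-actin 3′ minus 5′ differences, and they split the factors in a different way. The 5 arrays of these groups lay entirely below the other 11 day 5 arrays for 5 factors (Nop58, Ncl, Npm1, Ftsj3 and Rrs1). The same 5 arrays lay entirely above the other 11 for 2 (Polr1c and Ddx18), whichever the cell type, and 27 factors overlapped. The share of all genes that split in this way was not counted. The split refers to the brightest probe set of each gene. In CD4 continuous against transient cells, the other probe sets differed by 0.38 for Polr1c and by 0.012 and 0.053 for Ddx18, none of them called. The other probe set of Npm1 differed by 1.42 and those of Ncl by -0.69, 0.10 and 2.38. Ftsj3 had 8.41, 8.59 and 8.18 in CD8 continuous, 7.71, 7.45 and 7.54 in CD8 transient and 6.25, 5.90 and 6.21 in CD8 unstimulated cells, and 7.59, 7.92 and 7.49 in CD4 continuous, 5.56 and 5.00 in CD4 transient and 7.81 and 7.58 in CD4 unstimulated cells. The lowest CD8 group was thus unstimulated and the lowest CD4 group transient. Polr1c had 10.78, 11.17 and 10.43 in CD8 continuous, 10.41, 10.96 and 10.63 in CD8 transient and 12.88, 12.99 and 13.21 in CD8 unstimulated cells, and 11.26, 10.69 and 10.72 in CD4 continuous, 12.38 and 12.76 in CD4 transient and 11.15 and 11.02 in CD4 unstimulated cells. Polr1c was the reverse of Ftsj3, with its highest CD8 values in unstimulated and its highest CD4 values in transient cells. Nop58 had 11.59, 11.67 and 11.49 in CD8 continuous, 10.12, 9.28 and 10.05 in CD8 transient and 8.69, 9.16 and 9.01 in CD8 unstimulated cells, and 10.89, 10.84 and 9.94 in CD4 continuous, 8.57 and 8.28 in CD4 transient and 10.78 and 10.19 in CD4 unstimulated cells. Ncl had 13.01, 13.12 and 12.87 in CD8 continuous, 12.26, 12.18 and 11.94 in CD8 transient and 11.55, 11.52 and 11.23 in CD8 unstimulated cells, and 12.39, 12.53 and 12.27 in CD4 continuous, 11.11 and 10.78 in CD4 transient and 12.57 and 12.60 in CD4 unstimulated cells. Rrs1 had 10.76, 11.28 and 10.30 in CD8 continuous, 9.88, 9.88 and 9.59 in CD8 transient and 8.75, 9.23 and 8.96 in CD8 unstimulated cells, and 11.12, 10.53 and 9.50 in CD4 continuous, 8.55 and 8.55 in CD4 transient and 10.38 and 10.42 in CD4 unstimulated cells. These 3 genes had the same lowest groups as Ftsj3. Nop58 and Ncl were highest in CD8 continuous cells, and for Rrs1 some CD4 continuous and CD4 unstimulated arrays lay within the CD8 continuous range. Ddx18 had 10.09, 10.35 and 10.11 in CD8 continuous, 9.90, 10.07 and 9.87 in CD8 transient and 11.36, 11.47 and 11.41 in CD8 unstimulated cells, and 9.95, 9.79 and 9.24 in CD4 continuous, 10.96 and 10.89 in CD4 transient and 10.09 and 10.24 in CD4 unstimulated cells. Ddx18 had the same highest groups as Polr1c. The part of RNA state in these differences was not tested.

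**Figure D5:**
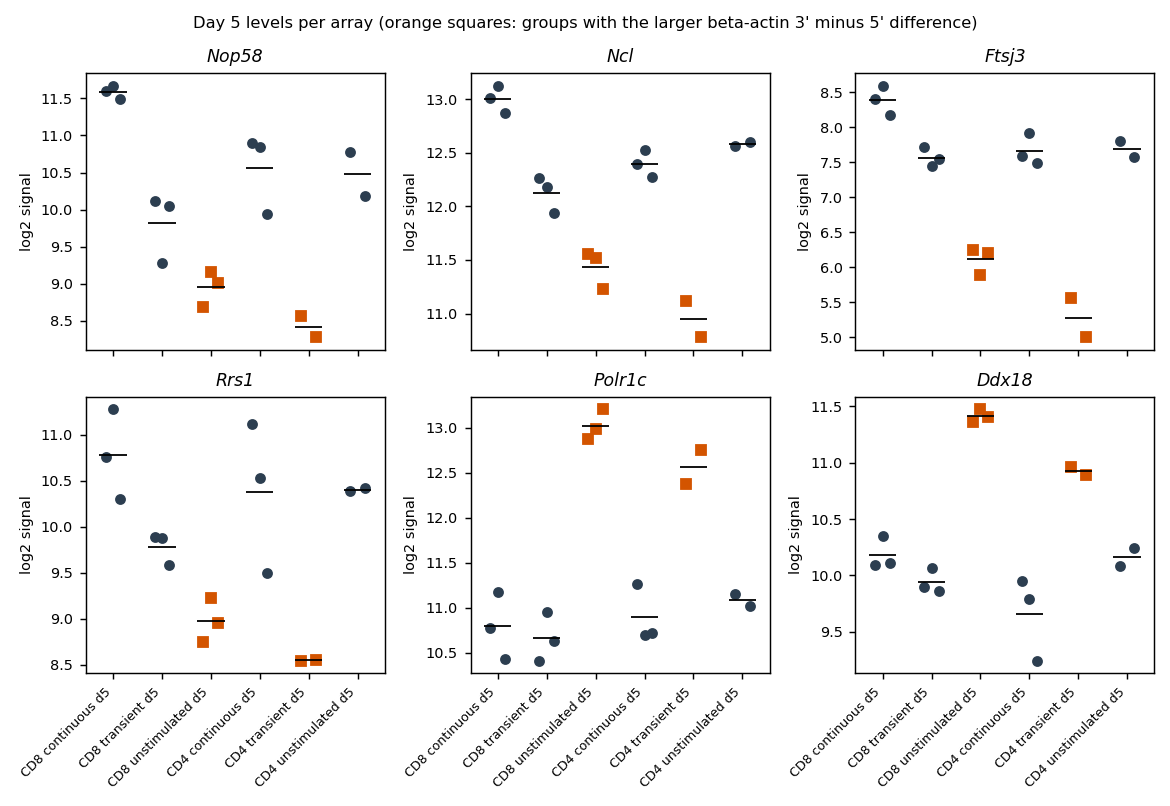
Log2 signals per array on day 5 are shown for Nop58, Ncl, Ftsj3, Rrs1, Polr1c and Ddx18, with group means as bars. Each gene is shown by its brightest probe set. Orange squares are the CD8 unstimulated and CD4 transient arrays (beta-actin 3′ minus 5′ difference of 1.92 to 2.73) and dark circles the other arrays (0.31 to 1.02). The squares lie below all circles for the first 4 genes and above them for Polr1c and Ddx18.

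In CD8 continuous against unstimulated cells 19 factors rose and 2 fell (21.4% and 25.9% of all genes), with a median of 0.60. The largest were Nop58 (2.63, SE 0.27, adjusted p = 4.13e-06), Ftsj3 (2.27, SE 0.17, adjusted p = 4.12e-07), Polr1c (-2.23, SE 0.21, adjusted p = 2.03e-06), Pno1 (1.90, SE 0.20, adjusted p = 5.32e-06), Rrs1 (1.80, SE 0.32, adjusted p = 0.000454) and Ncl (1.57, SE 0.13, adjusted p = 8.24e-07). Pno1 had 11.43, 11.44 and 10.88 in continuous, 9.39, 9.24 and 9.42 in transient and 9.26, 9.31 and 9.47 in unstimulated cells, so that its continuous arrays stood above both other groups, which lay close together. Wdr75 (-0.021) and Nop14 (0.035) had the smallest differences: Wdr75 had 9.71, 10.00 and 10.19 in continuous and 10.15, 10.09 and 9.72 in unstimulated cells, and Nop14 had 8.99, 8.93 and 8.92 in continuous and 8.61, 9.12 and 9.01 in unstimulated cells. Myc differed by 0.47 and was not called. The mean over the 7 measured B cell markers was 6.12 to 7.68 in continuous and 6.29 to 8.69 in unstimulated arrays, which overlapped. That over the 8 myeloid markers was 6.92, 5.38 and 5.64 in continuous and 9.80, 4.92 and 6.17 in unstimulated arrays. Without CD8 unstimulated replicate 1, the brightest of them, 20 factors were called in place of 21. Ddx18, a lower call here, had probe sets called in opposite directions.

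In CD8 transient against unstimulated cells 5 factors rose and 15 fell (16.3% and 15.5% of all genes), with a median of -0.31. Polr1c (-2.36, SE 0.21, adjusted p = 3.15e-06), Fbl (-1.60, SE 0.14, adjusted p = 3.07e-06), Ddx18 (-1.47, SE 0.15, adjusted p = 1.07e-05), Gnl3 (-1.46, SE 0.31, adjusted p = 0.00274) and Wdr75 (-0.91, SE 0.26, adjusted p = 0.0171) were lower and Ftsj3 (1.45, SE 0.17, adjusted p = 3.27e-05) was higher. Fbl had 10.36, 10.39 and 10.34 in transient and 11.95, 11.78 and 12.15 in unstimulated cells, and 11.85, 11.86 and 11.54 in continuous cells. Its transient arrays were below both other groups. Gnl3 had 9.64, 9.73 and 9.66 in transient and 10.97, 11.24 and 11.19 in unstimulated cells. Wdr75 had 8.98, 9.11 and 9.15 in transient and 10.15, 10.09 and 9.72 in unstimulated cells. Neither gene overlapped between the groups. The smallest differences were those of Pno1 (0.004), with the values above, and Ddx21 (0.014), which had 9.48, 9.75 and 9.61 in transient and 9.35, 9.83 and 9.62 in unstimulated cells. Myc differed by -0.46 and was not called. Same-numbered arrays of these groups deviated together, and with the number as a block the count was 21 in place of 20. Without CD8 transient replicate 1 it was 13. Probe sets of Ncl were called in opposite directions.

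In CD4 continuous against transient cells 15 factors rose and 5 fell (17.6% and 16.5% of all genes), with a median of 0.43. Ftsj3 (2.39, SE 0.19, adjusted p = 1.7e-06), Nop58 (2.13, SE 0.30, adjusted p = 0.000107), Rrs1 (1.83, SE 0.36, adjusted p = 0.00136), Ncl (1.45, SE 0.15, adjusted p = 8.65e-06) and Pno1 (1.41, SE 0.22, adjusted p = 0.000265) were higher and Polr1c (-1.67, SE 0.23, adjusted p = 0.0001) was lower. Pno1 had 10.55, 10.55 and 9.74 in continuous and 8.82 and 8.93 in transient cells. All its continuous arrays lay above its transient ones. Polr1b had 7.36, 7.95 and 6.84 in continuous and 7.26 and 7.45 in transient cells, and Nop2 had 8.42, 8.80 and 8.01 in continuous and 8.55 and 8.38 in transient cells, with differences of 0.032 and -0.059. Myc differed by -0.72 and was not called. Ncl, Noc4l and Wdr12 had probe sets called in opposite directions. The CD4 transient arrays also had the highest B cell marker level, a mean over 7 measured markers of 8.74 to 9.81 against 5.64 to 6.28 in CD4 continuous and 6.08 to 6.84 in CD4 unstimulated arrays, and the highest myeloid marker level, 6.78 and 9.61 against 7.99, 5.17 and 5.90 in CD4 continuous and 8.03 and 5.71 in CD4 unstimulated arrays, though this overlapped. Without CD4 transient replicate 2, the brighter in myeloid markers, 16 factors were called in place of 20. The part of other cells in these differences was not tested.

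In CD4 transient against unstimulated cells 3 factors rose and 10 fell (9.66% and 13.1% of all genes), with a median of -0.43. Ftsj3 (-2.41, SE 0.21, adjusted p = 8.49e-06), Nop58 (-2.06, SE 0.33, adjusted p = 0.000643), Rrs1 (-1.85, SE 0.39, adjusted p = 0.00423), Ncl (-1.64, SE 0.16, adjusted p = 2.29e-05) and Tsr1 (-1.27, SE 0.25, adjusted p = 0.00264) were lower and Polr1c (1.48, SE 0.26, adjusted p = 0.00104) was higher. Tsr1 had 6.52 and 6.64 in transient and 7.70 and 8.00 in unstimulated cells, without overlap. Nop2 had 8.55 and 8.38 in transient and 8.55 and 8.37 in unstimulated cells and Fbl had 10.88 and 11.03 in transient and 11.05 and 10.79 in unstimulated cells, with differences of 0.008 and 0.031. Myc differed by 0.29 and was not called. Ddx18 and Polr1c had probe sets called in opposite directions. Without CD4 transient replicate 1 the count of 13 was 8, and without CD4 transient replicate 2, with the high myeloid level, it was 13.

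Whether a day 5 response differed between the cell types was tested as the CD8 response minus the CD4 response. For transient against unstimulated cells, 10 factors had a higher and 9 a lower difference (18.5% and 18.9% of all genes), led by Ftsj3 (3.86), Polr1c (-3.84) and Nop58 (2.92). For continuous against unstimulated cells, 14 were higher and 2 lower (11.3% and 8.46% of all genes), led by Nop58 (2.55), Ftsj3 (2.30) and Polr1c (-2.04). For continuous against transient cells, 12 were higher and 2 lower (8.13% and 10.7% of all genes), led by Gnl3 (2.27) and Polr1c (1.80). Myc was not called in any of the 3. All 3 include the CD8 unstimulated or the CD4 transient arrays, with the beta-actin differences given above.

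Among the 4 day 5 groups with the smaller beta-actin difference (CD8 continuous, CD8 transient, CD4 continuous and CD4 unstimulated), CD8 continuous cells had the highest mean for 33 of the 34 factors. The exception was Polr1c, which was highest in CD4 unstimulated cells. The same tally over all genes was not made. None of the 3 comparisons among these groups that were given first and none of the day 2 comparisons had a factor whose probe sets were called in opposite directions. Of the 60 probe sets, 39 were higher and 0 lower in CD8 against CD4 continuous cells, 2 were higher and 4 lower in CD4 continuous against unstimulated cells, and on day 2 stimulation gave 15 higher in CD8 and 24 higher in CD4 cells, with 0 lower in both.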

How the data were processed

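RNA of T cells was measured on 28 Affymetrix Mouse 430A2 arrays. The deposited values are log2 signals per probe set, made by the authors with RMA per the submitters' processing notes, in a version not given in the sources used here. The scale was checked on the values. No background correction or probe summary was redone, and no slide or scan block could be formed.

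Of 22690 probe sets, 64 controls, 691 with several symbols and 1555 with none were left out, which leaves 20380, of which 20351 matched a reference gene by Entrez number. Each day was fitted on its own in limma 3.58.1 (R 4.3.3) with a mean per group (12 arrays and 8 residual degrees of freedom on day 2, 16 and 10 on day 5). Differences are contrasts of group means, tests are two-sided, and p-values were adjusted over 12393 genes by Benjamini and Hochberg (called below 0.05). The fit was tested on simulated data. Tables were made in Python 3.11.15 with pandas 2.3.3. The number of arrays limits the precision.

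By rule, full statistics are given per comparison for the 6 called factors with the largest difference and values for the 2 with the smallest, Myc in every comparison, and up to 3 called genes of each other list. The members and lists were chosen with earlier results of these data known. Same-numbered arrays deviated together in all 3 pairs (r above 0.1) only for CD8 transient and unstimulated cells (0.50, 0.36 and 0.15 across genes). Alternatives were another probe set summary, a low-signal filter (lowest 30% left out), quantile normalization, median centring, array weights, 1 fit of all arrays, a replicate block, leaving out the third unstimulated day 2 arrays, and each array left out. The comparison of both continuous groups, the ribosomal protein list and the settings named as such were added with the data in view.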

Additional observations from a re-analysis of the deposited data

Results flagged for a closer look

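Between the cell types, 49 differences of a day 5 response (CD8 response minus CD4 response, limma, adjusted p below 0.05) were called among the 34 factors over 3 comparisons. Each of the 3 includes the CD8 unstimulated arrays, the CD4 transient arrays or both, whose beta-actin 3′ minus 5′ difference was 1.92 to 2.73 against 0.31 to 1.02 in the other groups, and the 3 share arrays. The part of RNA state in them was not tested.

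For transient against unstimulated cells the CD8 response was the higher one for 10 factors (Ftsj3 3.86, Nop58 2.92, Rrs1 2.66, Ncl 2.33, Npm1 1.69, Tsr1 1.24, Rrp9 1.14, Wdr12 1.01, Ddx21 0.96 and Nip7 0.91) and the lower one for 9 (Polr1c -3.84, Ddx18 -2.23, Gnl3 -1.88, Fbl -1.63, Noc4l -1.57, Wdr75 -1.35, Ltv1 -0.96, Nop56 -0.69 and Ebna1bp2 -0.64). Rcl1 (0.20) and Gar1 (-0.21) had the smallest differences, and Myc (-0.75) was not called. Of the largest, Ftsj3 had SE 0.27 and adjusted p = 2.92e-07, and Polr1c had SE 0.33 and adjusted p = 1.32e-06. Ncl had probe sets called in opposite directions.

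For continuous against unstimulated cells it was higher for 14 (Nop58 2.55, Ftsj3 2.30, Rrs1 1.82, Ncl 1.75, Rrp9 1.45, Nolc1 1.31, Pno1 1.13, Npm1 0.99, Polr1a 0.99, Tsr1 0.95, Wdr12 0.90, Imp4 0.79, Nip7 0.77 and Bop1 0.75) and lower for 2 (Polr1c -2.04 and Ddx18 -0.73), with Fbl (0.0026) and Ebna1bp2 (-0.072) the smallest and Myc (0.89) not called. The count of 16 was 8 and 9 without CD4 unstimulated replicate 1 or 2. Ddx18 had probe sets called in opposite directions.

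For continuous against transient cells it was higher for 12 (Gnl3 2.27, Polr1c 1.80, Fbl 1.63, Wdr75 1.60, Ddx18 1.50, Ltv1 1.33, Noc4l 1.28, Nop56 1.27, Wdr43 1.14, Polr1b 1.14, Nop2 1.03 and Nop14 0.99) and lower for 2 (Ftsj3 -1.56 and Npm1 -0.70), with Nhp2 (-0.03) and Bop1 (0.12) the smallest and Myc (1.64) not called. Gnl3 had SE 0.46 and adjusted p = 0.00419. Ncl had probe sets called in opposite directions.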

How the results depend on the processing

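Over all alternatives no named difference changed direction, and every factor called in the stimulation comparisons of day 2 was higher in stimulated cells. Of 513 values of the 69 named differences under alternatives other than leaving out an array, 457 kept their side of the threshold and 56 were no longer called, 45 of these in the fit of all 28 arrays; with an array left out, 433 of 477 kept it and 44 did not. The share of all genes called is given above only for the fits by day with all arrays and without the third unstimulated arrays. The counts of called factors depended on the setting as follows. For CD8 stimulated cells on day 2 (8) the count was 18 with median centring, 28 with array weights, 29 in the fit of all arrays, 14 with the replicate block, 20 without the third unstimulated arrays and 1 to 18 with an array left out. For CD4 stimulated cells (16) it was 28, 27, 33, 26 and 34 under the same settings and 5 to 21 with an array left out. Median centring put the median difference of all genes at -0.48 on day 2, against 0.14 as deposited. For the difference between both responses (0) it was 4 without the third arrays, also with quantile normalization, a setting chosen after seeing the data, and 0 with any single array left out.

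In the fit of all 28 arrays, where the spread of day 2 enters, the day 5 counts were 0 for CD8 continuous against transient (28), 5 for CD8 continuous against unstimulated (21), 2 for CD8 transient against unstimulated (20), 3 for CD4 continuous against transient (20), 0 for CD4 continuous against unstimulated (3), 1 for CD4 transient against unstimulated (13) and 0 for both continuous groups (25). For the differences between cell types they were 3 for transient against unstimulated (19), 0 for continuous against unstimulated (16) and 0 for continuous against transient (14). With an array left out, the counts of the first set were 22 to 27, 19 to 21, 13 to 18, 14 to 22, 0 to 4, 8 to 13 and 13 to 26 in the same order, and those of the differences 14 to 19, 8 to 20 and 11 to 17. Quantile normalization gave 5 for CD4 continuous against unstimulated cells. The replicate block gave 21 for CD8 transient against unstimulated cells, where same-numbered arrays deviated together in all 3 pairs. In CD4 continuous against unstimulated cells both same-numbered pairs also deviated together (r of 0.42 and 0.28). What the numbers share is not given in the labels. With crossed numbers, chosen after seeing the data because same-numbered CD4 transient and unstimulated arrays had r = -0.21, the count stayed at 13.

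A group of 2 arrays left with 1 is assumed to vary like the other groups. Signal over background could not be read from the processed values.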
